A study of Mus musculus with 2 samples.

Results

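The genes described here are Ccl2, Ccl7, Ccl8, Ccl12 and Ccr2. The first 4 are mouse chemokine genes, grouped as attractants that draw monocytes out of the blood. Ccr2 is the receptor gene of inflammatory monocytes. All 5 genes were chosen by symbol, and they are 5 of the 47730 features listed in each matrix. Single-cell 3′ RNA libraries had been made from live CD45+ cells (CD45 marks white blood cells) sorted from tumours of C57BL6\J mice. Both groups had been ovariectomised, which removes the main source of estrogen: 1 library came from mice given E2, the customary short name of estradiol, and 1 library came from mice given placebo. The sources used here do not give the tumour type, the E2 dose, the length of treatment, the age of the mice or how many mice went into a library.

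Chemokines are small secreted proteins that guide migrating cells along a gradient, and those of this family carry adjacent cysteines near the start of the mature protein. CCL2, CCL7 and CCL12 act on CCR2, which classical monocytes need in order to leave the bone marrow and enter inflamed tissue and tumours. CCL7 also acts on other receptors, and mouse CCL8 acts largely on CCR8. As monocytes become tissue macrophages they usually lose CCR2.

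The ligand genes lie together on the forward strand of chromosome 11 (GRCm38, GENCODE M21), each with 3 exons, within 81229 bases from the start of Ccl2 to the end of Ccl8. Ccl2 spans chr11:82035571-82037453, Ccl7 chr11:82045712-82047525, Ccl12 chr11:82101845-82103400 and Ccl8 chr11:82115185-82116799. Ccr2 lies on chromosome 9 at chr9:124101950-124113557, also on the forward strand. The coding stretch around the cysteine codon pair that gives the CC chemokines their name is shown because it is what the ligands have in common and also where their letters can be told apart. Each line holds 60 coding bases of the GENCODE M21 transcript, with the adjacent cysteine codons in capitals.
Ccl2: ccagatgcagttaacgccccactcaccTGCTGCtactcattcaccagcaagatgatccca
Ccl7: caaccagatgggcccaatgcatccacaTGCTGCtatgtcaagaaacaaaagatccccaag
Ccl8: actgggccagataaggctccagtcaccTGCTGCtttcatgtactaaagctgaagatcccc
Ccl12: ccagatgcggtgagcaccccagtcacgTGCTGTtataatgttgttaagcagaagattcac

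Aligned on the codon pair with no gaps, the stretches of Ccl8 and Ccl12 matched at 38 of 60 bases, those of Ccl2 and Ccl12 at 37, and those of Ccl7 and Ccl8 at 20. The longest exact run shared by the transcripts of any of these ligand genes was 23 bases, between Ccl2 and Ccl7, so their reads could be told apart. Ccl2 overlaps the antisense gene model Gm17268, which held 0 UMIs in all 9296 barcodes.

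The values are unique molecular identifiers (UMIs), that is, captured RNA molecules counted once each at the 3′ end. The E2 library held 5791 barcodes and 52628133 UMIs, and the placebo library 3505 barcodes and 24545595 UMIs. After filters, 5499 E2 and 3393 placebo barcodes were kept, with medians of 7908 and 5088 UMIs. The libraries shared 95 barcode sequences, of which 87 and 88 were kept, with low medians of 581 and 716 UMIs. Without them, the log2 ratio of Ccr2 over all kept barcodes was -0.08 in place of -0.04 and that of Ccl8 in resident macrophage-like cells -0.15 in place of -0.04, and the other member ratios recomputed stayed within their counting intervals. Cells were sorted into classes by marker genes, with none of the 5 genes among the markers, and a class is called X-like for that reason. The markers left 442 E2 cells (8.04%) and 357 placebo cells (10.5%) in no class. Levels are given as CPM, the UMIs of a gene summed over a class per 1000000 UMIs of that class. With 1 library per group no test was possible, no p-value is given, and every interval (95%) covers counting error only: it does not cover the spread between mice, and it is too narrow where 1 cell holds many of the UMIs.

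Over all kept barcodes, the 4 ligand transcripts were more abundant in the E2 library and the receptor transcript was nearly level. Ccl2 stood at 331 CPM in the E2 library and 196 CPM in the placebo library, a ratio of 1.69 (1.63 to 1.74). Ccl7 stood at 339 CPM in the E2 library and 141 CPM in the placebo library, a ratio of 2.41 (2.32 to 2.50). Ccl8 stood at 110 CPM in the E2 library and 44.1 CPM in the placebo library, a ratio of 2.49 (2.33 to 2.67). Ccl7 and Ccl8 thus had the largest ratios of the ligands. Ccl12, the least abundant, stood at 28.8 CPM in the E2 library and 17.9 CPM in the placebo library, a ratio of 1.61 (1.44 to 1.80). Ccr2 stood at 665 CPM in the E2 library and 683 CPM in the placebo library, a ratio of 0.974 (0.956 to 0.993). Its direction was not stable: the log2 ratio of -0.04 became 0.04 with every cell thinned to 2000 UMIs and 0.006 with the 50 most abundant genes left out of the total. Log2 ratios throughout are log2 of (E2 CPM + 10) over (placebo CPM + 10), so they are drawn towards 0 for genes of low level, and a gene is counted as past 1.5-fold on that scale with at least 20 UMIs over both libraries. Ccl2, Ccl7 and Ccl8 were past 1.5-fold, 3 of 5 genes, all higher in the E2 library, where 0.900% of 16560 measured genes were past it in that direction and 2.66% in the other.

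**Figure D1:**
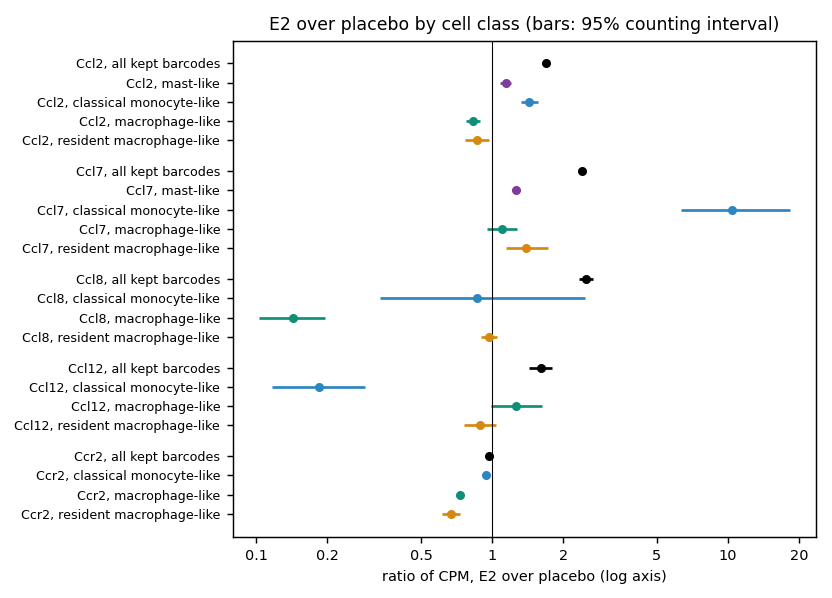
Ratio of CPM, E2 library over placebo library (log axis), for each gene over all kept barcodes and within 4 gated classes, where the gene had at least 20 UMIs over both libraries. Points are ratios and bars are 95% counting intervals. The ligand ratios over all kept barcodes sit between 1.61 and 2.49, while within mast-like and resident macrophage-like cells they sit between 0.860 and 1.39.

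The cells that held the ligand transcripts fell into a small number of classes. To show this, each gene's CPM over all kept barcodes was split into the UMIs contributed by each class. Mast-like cells contributed 147 CPM of the Ccl2 level in the E2 library and 68.3 CPM in the placebo library, which is 58.5% of the difference between the libraries. For Ccl7 the mast-like contribution was 285 CPM in the E2 library and 119 CPM in the placebo library, 83.5% of the difference. Resident macrophage-like cells contributed 102 CPM of Ccl8 in the E2 library and 33.2 CPM in the placebo library. Their Ccl12 contribution was 21.7 CPM in the E2 library and 7.76 CPM in the placebo library. Both of these gaps were as large as, or larger than, the whole difference between the libraries, 65.8 CPM for Ccl8 and 10.9 CPM for Ccl12. The share of cells in both classes was higher in the E2 library. Mast-like cells were 225 of 5499 in the E2 library (4.09%; 3.58 to 4.65) and 59 of 3393 in the placebo library (1.74%; 1.33 to 2.24). Resident macrophage-like cells were 413 in the E2 library (7.51%; 6.83 to 8.24) and 82 in the placebo library (2.42%; 1.93 to 2.99). The rise was not particular to these classes, since the whole mix of cells differed. All monocyte and macrophage gates together held 43.2% of E2 and 28.4% of placebo cells, and cDC1-like cells were 5.71% and 1.86%. T-like cells were 16.1% of E2 and 31.8% of placebo cells, and B-like cells 0.982% and 5.07%. With 1 sorted sample in each group, a treatment effect on these shares and a difference between samples, dissociations or sorts cannot be told apart.

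**Figure D2:**
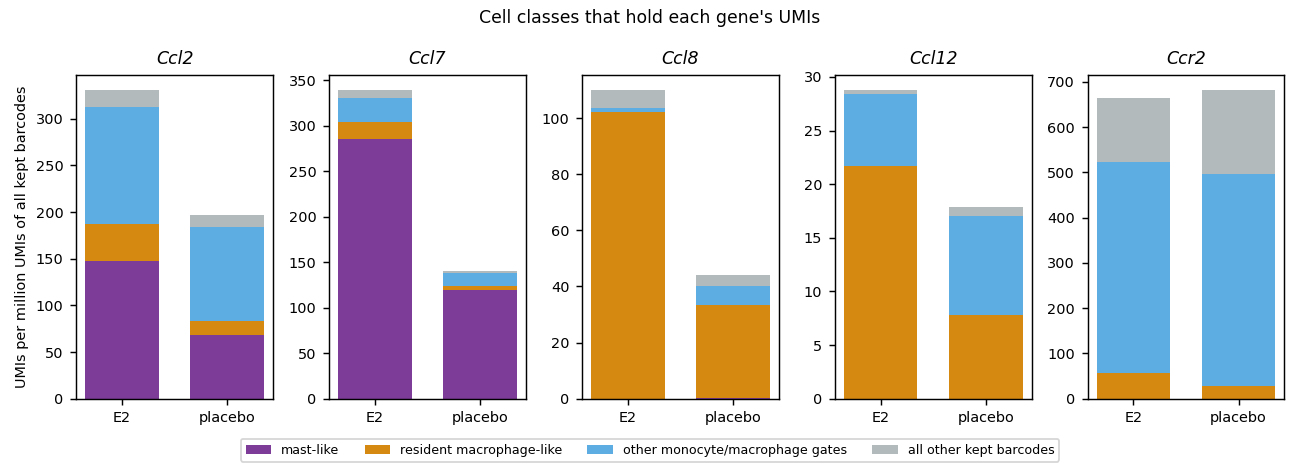
UMIs of each gene per 1000000 UMIs of all kept barcodes (linear axis from 0, own scale for each gene) in the E2 and placebo libraries, split by the cell class that held them. Mast-like cells hold most of Ccl7, resident macrophage-like cells most of Ccl8, and the other monocyte and macrophage gates most of Ccr2.

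Mast-like cells were the richest source of Ccl2 and Ccl7 RNA in both libraries. Mast cells are tissue granulocytes that release histamine and proteases. This class was led, outside its own marker list, by Mrgprb1, Tph1, Mcpt2, Serpinb1a and Mrgprb2, and every cell of the gate fell into 1 cluster made without the 5 genes. The 6 mast markers (Cpa3, Tpsb2, Cma1, Mcpt4, Kit and Tpsab1) summed to 150485 CPM in its E2 cells and 155380 CPM in its placebo cells, against 8.69 to 20.1 CPM in classical monocyte-like, macrophage-like and resident macrophage-like cells. The class held 44.5% of all Ccl2 UMIs in the E2 library and 34.8% in the placebo library. It held 84.0% of all Ccl7 UMIs in the E2 library and 84.7% in the placebo library, although it made up only 4.09% and 1.74% of the cells.

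Within mast-like cells the libraries were close. Ccl2 stood at 4113 CPM in E2 cells and 3618 CPM in placebo cells, a ratio of 1.14 (1.08 to 1.20). Ccl7 stood at 7955 CPM in E2 cells and 6309 CPM in placebo cells, a ratio of 1.26 (1.21 to 1.31). Neither was past 1.5-fold, 0 of 2 genes measured here, where 7.54% of 8037 genes were past it upward and 6.57% downward. Nearly every mast-like cell held both transcripts: a Ccl2 UMI was seen in 97.8% of E2 cells and 96.6% of placebo cells, and a Ccl7 UMI in 95.1% of E2 cells and 100% of placebo cells. The background share of T-like and B-like cells with a Ccl7 UMI was 2.66% in the E2 library and 0.958% in the placebo library, at medians of 4223 and 4383 UMIs against 7664 and 7208 in mast-like cells. Amounts per cell varied widely. The median mast-like cell held 23 Ccl2 UMIs in the E2 library (quartiles 8 and 42) and 18 in the placebo library (6 and 30.5). For Ccl7 the median was 39 UMIs in the E2 library (11 and 93) and 31 in the placebo library (10.5 and 64). Of the class's Ccl2 UMIs, 50% lay in 40 of 225 E2 cells and in 9 of 59 placebo cells. Ccl12 was at 0 UMIs in mast-like cells of both libraries, and Ccl8 at 2 UMIs in each.

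**Figure D3:**
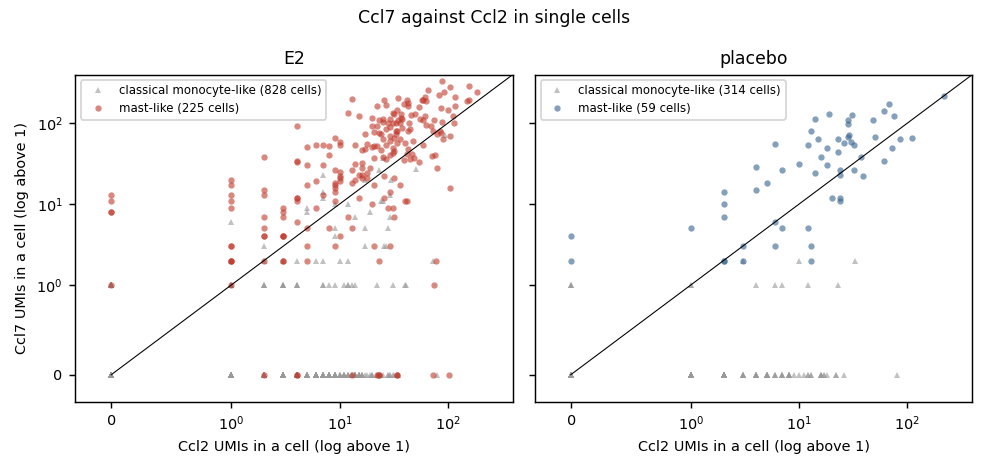
Ccl7 UMIs against Ccl2 UMIs in single mast-like cells (coloured circles) and classical monocyte-like cells (grey triangles) of the E2 and placebo libraries, on axes that are linear up to 1 and logarithmic above it; the line marks equal counts. Of mast-like cells, 74.2% in the E2 library and 64.4% in the placebo library held more Ccl7 than Ccl2 UMIs.

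The balance of Ccl7 to Ccl2 set mast-like cells apart from the other sources. Since both are counted at the 3′ end, their UMIs were compared as a count ratio without a length correction. Mast-like cells held 1.93 Ccl7 UMIs per Ccl2 UMI in the E2 library (1.88 to 1.99) and 1.74 in the placebo library (1.64 to 1.86). In classical monocyte-like cells the ratio was 0.158 in the E2 library (0.143 to 0.175) and 0.0219 in the placebo library (0.0125 to 0.0359). In macrophage-like cells the ratio was 0.261 in the E2 library (0.241 to 0.283) and 0.196 in the placebo library (0.171 to 0.224). Both of these classes thus held far more Ccl2 than Ccl7. Resident macrophage-like cells lay between them and mast-like cells, at 0.495 in the E2 library (0.458 to 0.535) and 0.306 in the placebo library (0.244 to 0.382). The few ligand UMIs in T-like and B-like cells, which should lack both genes, were 26 Ccl7 and 26 Ccl2 UMIs in the E2 library, and 12 Ccl7 and 19 Ccl2 UMIs in the placebo library. With mast-like cells left out, Ccl2 was still higher in the E2 library, at 191 CPM against 130 CPM in the placebo library (ratio 1.46; 1.40 to 1.53). Ccl7 likewise stood at 56.4 CPM in the E2 library and 22.0 CPM in the placebo library (ratio 2.57; 2.33 to 2.83).

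Monocytes and macrophages held more of the Ccl2 UMIs than mast-like cells did, at a lower level in each class. The gates of this lineage together held 50.1% of Ccl2 UMIs in the E2 library and 58.8% in the placebo library. In classical monocyte-like cells (828 in the E2 library and 314 in the placebo library), which are gated on genes of blood-derived inflammatory monocytes such as Ly6c2, Ccl2 stood at 335 CPM in E2 cells and 233 CPM in placebo cells, a ratio of 1.44 (1.33 to 1.56). In macrophage-like cells (802 in the E2 library and 333 in the placebo library) the order was the other way, with 328 CPM in E2 cells and 396 CPM in placebo cells, a ratio of 0.828 (0.776 to 0.884). In resident macrophage-like cells Ccl2 stood at 427 CPM in E2 cells and 497 CPM in placebo cells, a ratio of 0.860 (0.767 to 0.968), and its log2 ratio of -0.21 became 0.14 where clusters replaced the gates. The macrophage classes did not share 1 direction. In Arg1 macrophage-like cells (57 in the E2 library and 100 in the placebo library) Ccl2 was higher in the E2 library. It stood there at 384 CPM in E2 cells and 194 CPM in placebo cells, a ratio of 1.97 (1.66 to 2.34). A Ccl2 UMI was found in 46.5% of E2 and 41.1% of placebo classical monocyte-like cells, and after thinning to 2000 UMIs in 25.2% and 24.5%. So a minority of cells carried most of the message: 50 of 828 E2 cells and 17 of 314 placebo cells held 50% of that class's Ccl2. Fibroblast-like cells, of which the sort left 70 in the E2 library and 19 in the placebo library, held Ccl2 at 357 CPM in E2 cells and 563 CPM in placebo cells, with 28.6% and 61.8% of those UMIs in 1 cell. Their Ptprc, the gene of CD45, was at 28.2 CPM in E2 cells and 0 in placebo cells.

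Ccl7 in classical monocyte-like cells had the largest ratio of any ligand in the 4 classes described here. It stood at 53.0 CPM in E2 cells (441 UMIs) and 5.12 CPM in placebo cells (16 UMIs), a ratio of 10.4 (6.31 to 18.3). The E2 message was concentrated: 23 of 828 cells (2.78%, interval 1.77 to 4.14) held at least 5 Ccl7 UMIs and together 83.0% of the class's Ccl7. In the placebo library 0 of the 314 cells held that many, with an interval of 0 to 1.17%. This cut of 5 UMIs was chosen after the values were seen. Those 23 cells also held Ccl2 at 1780 CPM, against 247 CPM in the 750 E2 cells without Ccl7, and mast markers at 14.6 CPM, against 16.8 CPM. Over all cells of the class with any Ccl7 UMI, mast markers stood at 26.7 CPM in the 78 E2 cells and 27.7 CPM in the 13 placebo cells, against 16.8 CPM in E2 cells and 10.1 CPM in placebo cells without Ccl7. The part of mast cell RNA in the Ccl7 ratio was not tested. On the log2 scale the difference of 2.06 became 1.37 with 1 more marker asked of each gate and 1.44 where clusters replaced the gates, so its size depends on where the class ends. In macrophage-like cells Ccl7 stood at 85.7 CPM in E2 cells and 77.8 CPM in placebo cells, a ratio of 1.10 (0.955 to 1.27), and cells with at least 5 UMIs were 4.36% of E2 and 4.20% of placebo cells. In resident macrophage-like cells it stood at 212 CPM in E2 cells and 152 CPM in placebo cells, a ratio of 1.39 (1.14 to 1.72). Among classical monocyte-like cells, Ccl7 was the only 1 of the 5 genes past 1.5-fold upward (0.709% of 10573 genes were), and Ccl12 was the only 1 past it downward (1.58% were).

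That Ccl12 value shows how far 1 cell can carry a low gene. Ccl12 stood at 3.73 CPM in E2 and 20.1 CPM in placebo classical monocyte-like cells, but 59 of the 63 placebo UMIs (93.7%) lay in 1 cell, and without the richest cell of each library the log2 ratio was 0.09 in place of -1.14. Ccl8 in macrophage-like cells was alike: 6.25 CPM in E2 cells and 43.8 CPM in placebo cells, with 57.1% of the placebo UMIs in 1 cell. It was the only 1 of the 5 genes past 1.5-fold in that class (downward, where 1.20% of 11336 genes were; 1.51% were past it upward), and its log2 ratio of -1.73 was -0.86 without the richest cells and 0.58 where clusters replaced the gates. Both values thus rest on few cells.

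**Figure D4:**
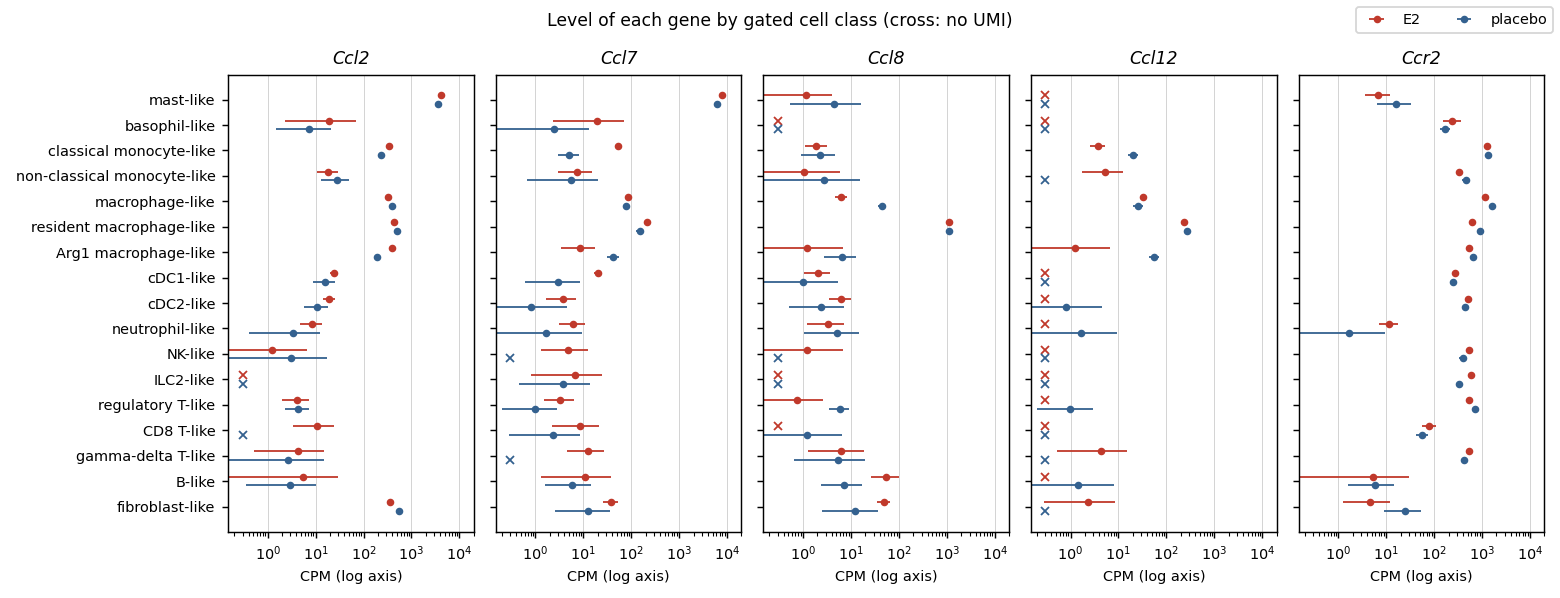
CPM of each gene (log axis) in 17 gated cell classes of the E2 library (red) and the placebo library (blue). Points are levels, bars are 95% counting intervals, and crosses mark classes with no UMI. Ccl2 and Ccl7 peak in mast-like cells and Ccl8 and Ccl12 in resident macrophage-like cells, while Ccr2 spans monocytes, macrophages, dendritic cells and lymphoid cells.

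Resident macrophage-like cells had the highest Ccl8 and Ccl12 levels of the classes in both libraries. They were gated on at least 4 of 7 markers of the long-lived macrophages that sit along vessels and in connective tissue (Folr2, Lyve1, Cbr2, Pf4, Gas6, Fcrls and Mrc1), and were led outside the lists by Stab1, Sepp1, C4b, Ltc4s and Cd163. The class held 92.7% of Ccl8 UMIs in the E2 library and 75.3% in the placebo library. It held 75.4% of Ccl12 UMIs in the E2 library and 43.3% in the placebo library. Within the class the libraries did not differ beyond counting error. Ccl8 stood at 1094 CPM in E2 cells and 1127 CPM in placebo cells, a ratio of 0.971 (0.900 to 1.05). Ccl12 stood at 233 CPM in E2 cells and 264 CPM in placebo cells, a ratio of 0.886 (0.756 to 1.04). Neither direction was stable: the Ccl8 log2 ratio of -0.04 was -0.52 with thinned cells and 0.27 with 3 times as many doublets removed, and that of Ccl12, -0.17, was -0.79 with thinned cells and 0.43 without the richest cell of each library. In the placebo library that 1 cell held 41.2% of the class's Ccl12. None of the 5 genes was past 1.5-fold in the class, where 4.27% of 10078 genes were past it upward and 6.49% downward. With the class left out, Ccl8 was lower in the E2 library, at 8.82 CPM against 11.2 CPM in the placebo library (ratio 0.787; 0.670 to 0.925). Ccl12 was lower too, at 7.81 CPM in the E2 library and 10.5 CPM in the placebo library (ratio 0.746; 0.631 to 0.884). In the placebo library 1 cell held 32.9% of the Ccl8 UMIs left and 1 cell 24.8% of the Ccl12 UMIs left, so these lower levels rest in part on single cells. The higher level of both over all kept barcodes did not remain once resident macrophage-like cells were set aside.

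Ccl8 was seen in a minority of these cells, some of which held high amounts. A Ccl8 UMI was seen in 36.3% of E2 and 47.6% of placebo resident macrophage-like cells, against 0.851% of E2 and 0.958% of placebo T-like and B-like cells. Median depths were 9966 UMIs in E2 and 6573 UMIs in placebo resident macrophage-like cells, and after thinning the shares were 27.2% and 31.2%. The richest E2 cell held 525 UMIs, 10.5% of the class's Ccl8, and 10 of 413 E2 cells and 5 of 82 placebo cells held 50% of it. At the edge of the gate, cells with exactly 4 markers (125 in the E2 library and 27 in the placebo library) held Ccl8 at 109 CPM in E2 cells and 148 CPM in placebo cells. Cells with 3 markers (216 in the E2 library and 49 in the placebo library) held it at 9.16 CPM in E2 cells and 248 CPM in placebo cells. In the placebo library 1 cell outside the class held 84 Ccl8 UMIs, and its part in that level was not tested.

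When all monocyte- and macrophage-gated cells were thinned to 2000 UMIs and ordered by how many of the 7 resident markers they held, Ccl8 was highest and Ccr2 lowest in the cells with most markers. In cells with no marker (1238 in the E2 library and 601 in the placebo library), Ccl8 stood at 5.25 CPM in the E2 library and 4.16 CPM in the placebo library. In cells with 4 or more (227 in the E2 library and 47 in the placebo library), it stood at 1905 CPM in the E2 library and 2660 CPM in the placebo library. Ccl12 was also highest in the cells with most markers. It stood at 9.69 CPM in E2 cells and 16.6 CPM in placebo cells at no marker. At 4 or more it stood at 220 CPM in E2 cells and 596 CPM in placebo cells. Its placebo level did not rise at each step, at 5.21 CPM with 1 marker (2 UMIs), 108 CPM with 2 and 100 CPM with 3. Ccr2 did not run evenly along the order. It stood at 1074 CPM in the E2 library and 1178 CPM in the placebo library at no marker, at 1354 CPM in the E2 library and 1518 CPM in the placebo library at 1 marker, and at 412 CPM in the E2 library and 638 CPM in the placebo library at 4 or more. Ccl2 differed less along the order, with 245 CPM in E2 cells and 240 CPM in placebo cells at no marker, and 474 CPM in E2 cells and 521 CPM in placebo cells at 4 or more. Ccl7 rose at each step in both libraries. It stood at 42.8 CPM in E2 cells and 20.8 CPM in placebo cells at no marker. At 4 or more, Ccl7 stood at 240 CPM in E2 cells and 234 CPM in placebo cells (22 placebo UMIs). Among single resident macrophage-like cells, those with Ccl8 held Ccr2 less often. After thinning, 35.8% of E2 cells with Ccl8 held a Ccr2 UMI (26.8 to 45.5), against 56.5% of E2 cells without Ccl8 (50.6 to 62.3). In the placebo library the shares were 25.0% of cells with Ccl8 (9.77 to 46.7) and 83.0% of cells without it (70.2 to 91.9).

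**Figure D5:**
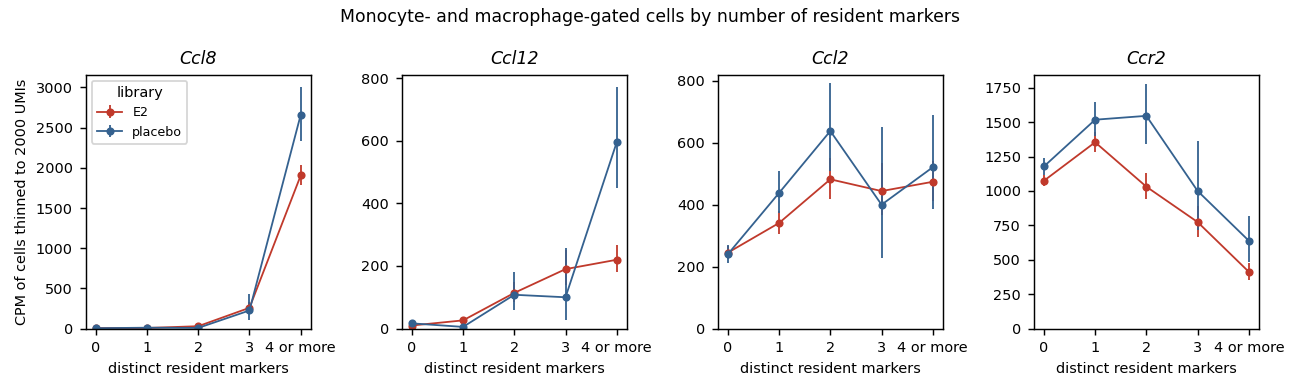
CPM of Ccl8, Ccl12, Ccl2 and Ccr2 (linear axes from 0) in monocyte- and macrophage-gated cells thinned to 2000 UMIs, by the number of distinct resident macrophage markers, in the E2 library (red) and the placebo library (blue). Bars are 95% counting intervals. Ccl8 reaches 1905 CPM in E2 cells and 2660 CPM in placebo cells with 4 or more markers, where Ccr2 is at 412 CPM in E2 cells and 638 CPM in placebo cells.

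The 250 bases before the start of Ccl8 and of Ccl12 are shown because these neighbours had like patterns over the cell classes (Pearson's r = 0.82 over 38 combinations of class and library, a description only, since the combinations share libraries). They come from RefSeq (GRCm38.p6, forward strand), chr11:82114935-82115184 for Ccl8 and chr11:82101595-82101844 for Ccl12, and the table of starts held 3 of the 5 genes. Capitals mark matches on either strand to TGCTGA (the core of the element bound by MAF factors), GAGGAA (PU.1) and TATAAA (the TATA box). The letters GGG and CC with any 5 bases between them (NF-kB), TGANTCA (AP-1), and GAAA at both ends of any 2 bases (the interferon response element) were searched too.
Ccl8: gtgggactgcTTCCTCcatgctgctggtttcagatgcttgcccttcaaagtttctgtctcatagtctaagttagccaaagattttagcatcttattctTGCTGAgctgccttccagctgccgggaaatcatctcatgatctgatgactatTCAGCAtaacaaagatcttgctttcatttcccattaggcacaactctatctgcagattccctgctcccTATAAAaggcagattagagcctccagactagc
Ccl12: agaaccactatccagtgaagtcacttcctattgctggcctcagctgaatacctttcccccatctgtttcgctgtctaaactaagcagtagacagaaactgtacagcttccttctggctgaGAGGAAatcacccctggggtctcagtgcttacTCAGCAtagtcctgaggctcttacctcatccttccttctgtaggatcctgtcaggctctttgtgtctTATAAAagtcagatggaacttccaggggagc

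Both windows held the TATA letters, beginning 32 bases before the start in Ccl8 and 31 in Ccl12, letters that 12.4% of 32851 windows of this length held. Both also held the MAF letters, 2 matches in Ccl8 and 1 in Ccl12, with 1 beginning at 100 and at 98 bases before the start (16.1% of windows), and the PU.1 letters once each (23.3%). MAF and PU.1 letters together stood in 3.68% of windows. None of the NF-kB, AP-1 and interferon response letters was found in either window, where 45.8%, 6.75% and 2.98% of windows held them. The motifs were picked with the macrophage pattern known, the matches do not overlap each other, and a match is a description of letters, not of binding.

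Ccr2 RNA marked the receiving cells for the ligands that act on CCR2. Monocytes and macrophages held most of it: their gates together held 78.4% of Ccr2 UMIs in the E2 library and 72.7% in the placebo library. Where named clusters replaced the gates the shares were 42.6% and 44.7%, because several clusters of this lineage stayed unnamed and were counted outside. Classical monocyte-like cells stood at 1243 CPM in E2 cells and 1316 CPM in placebo cells, a ratio of 0.945 (0.911 to 0.980). A Ccr2 UMI was seen in 98.6% of these E2 cells and 95.9% of these placebo cells, at medians of 9782 and 9744 UMIs. In B-like cells, the background for this gene, the shares were 1.85% in the E2 library and 2.33% in the placebo library, at medians of 3190 and 3444 UMIs. Nearly every classical monocyte-like cell thus held the receptor transcript.

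Ccr2 was lower in the macrophages of the E2 library. In macrophage-like cells it stood at 1156 CPM in E2 cells and 1586 CPM in placebo cells, a ratio of 0.729 (0.705 to 0.754). In resident macrophage-like cells it stood at 609 CPM in E2 cells and 911 CPM in placebo cells, a ratio of 0.668 (0.613 to 0.730). Both log2 ratios, -0.45 and -0.57, kept their sign under each alternative run, and both fell short of the 1.5-fold line on that scale. In resident macrophage-like cells the log2 ratio was past that line, at -0.75, with 3 times as many doublets removed and, at -0.72, where clusters replaced the gates. Arg1 macrophage-like cells (57 in the E2 library and 100 in the placebo library), named for the arginase gene, stood at 540 CPM in E2 cells and 652 CPM in placebo cells, a ratio of 0.829 (0.737 to 0.932). Cluster 2 held 42.8% of E2 and 39.6% of placebo macrophage-like cells, the most of any cluster, and the part of the gate's mix of clusters in the Ccr2 ratio was not tested.

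Outside the monocyte lineage, Ccr2 had a middle level in lymphoid and dendritic classes. Regulatory T-like cells stood at 534 CPM in E2 cells and 699 CPM in placebo cells, a ratio of 0.763 (0.713 to 0.816), and held 4.42% of all Ccr2 UMIs in the E2 library and 13.3% in the placebo library. No member gene was past 1.5-fold in that class, of 3 with enough UMIs (1.29% of 10314 genes were past it upward and 2.25% downward). In ILC2-like cells, innate lymphocytes of type 2 immunity, it stood at 587 CPM in E2 cells and 335 CPM in placebo cells (42 and 70 cells), a ratio of 1.75 (1.41 to 2.17). NK-like cells stood at 545 CPM in E2 cells and 396 CPM in placebo cells (98 and 52 cells), a ratio of 1.38 (1.13 to 1.69). In gamma-delta T-like cells it stood at 533 CPM in E2 cells and 424 CPM in placebo cells, a ratio of 1.26 (1.03 to 1.55). The lymphoid classes thus did not share 1 direction.

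Monocyte- and macrophage-gated cells that met no finer gate stood at 728 CPM in the E2 library and 863 CPM in the placebo library. In the order of E2 levels below the gamma-delta T-like cells, cDC2-like cells (503 CPM in E2 and 446 CPM in placebo cells) came next, followed by non-classical monocyte-like cells (338 CPM in E2 and 458 CPM in placebo cells) and plasmacytoid DC-like cells (326 CPM in E2 and 211 CPM in placebo cells). Below them came cDC1-like cells (269 CPM in E2 and 246 CPM in placebo cells) and basophil-like cells (241 CPM in E2 and 172 CPM in placebo cells). In mature dendritic-like cells with Ccr7 it stood at 45.1 CPM in E2 cells and 1.96 CPM in placebo cells, but 59.5% of the E2 UMIs lay in 1 cell. The non-classical monocyte-like level also rested on few E2 cells. Of 122 such cells, 36.9% held a Ccr2 UMI, and 7 cells held 50% of the UMIs. Among the classes from ILC2-like down to gamma-delta T-like, at 533 to 587 CPM in the E2 library, neighbouring intervals overlapped. Other T-like cells stood at 156 CPM in the E2 library and 151 CPM in the placebo library, and CD8 T-like cells at 79.6 CPM in the E2 library and 55.9 CPM in the placebo library. Neutrophil-like, mast-like and B-like cells were near the floor, at 11.7, 6.86 and 5.37 CPM in the E2 library and 1.68, 15.8 and 5.78 CPM in the placebo library. The cells richest in Ccl2 and Ccl7 RNA therefore held almost no receptor RNA, whereas classical monocyte-like cells held both ligand and receptor: 382 of the 385 E2 cells with Ccl2 and 127 of the 129 placebo cells with Ccl2 also held Ccr2.

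The genes most like each member over the 38 combinations of class and library with at least 50 cells, among 7096 genes, were named by the highest Pearson's r of log2(CPM + 10), as a description. For Ccl2 they were Nt5dc2 (0.95), Snx24, Camk1, Scamp1 and Mitf (0.89), and for Ccl7 Syngr1 (0.92), Fblim1, Kcnq1, Chst1 and Itga9 (0.89). For Ccl8 they were Cd209f (0.96), Folr2, Cbr2, Gas6 and Lyve1 (0.90), of which the last 4 are resident markers used in the gate. For Ccl12 they were Stab1 (0.92), Ms4a7, Cbr2, Abcc3 and C1qc (0.89), of which Ms4a7, Cbr2 and C1qc are gate markers, and for Ccr2 they included Ube2l3 (0.79), Dok2, Pycard and Pigs (0.77). Between members, Ccl2 and Ccl7 reached 0.86, while Ccr2 reached 0.10 with Ccl2 and -0.16 with Ccl7.

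A list of 48 genes around these chemokines (other receptors and decoys, signal coupling, inducers, restraints, adhesion, proteases) was described in the same way. In classical monocyte-like cells 39 were measured, of which 1 was past 1.5-fold upward (0.709% of all measured genes were) and 5 downward (1.58% were), with a median log2 ratio of -0.17 against -0.05 over all genes. The higher one was Ccrl2, an atypical receptor that binds chemerin without signalling, at 130 CPM in E2 cells and 62.7 CPM in placebo cells, a ratio of 2.07 (1.78 to 2.43). Cx3cr1, the fractalkine receptor of non-classical monocytes and macrophages, stood at 124 CPM in E2 cells and 223 CPM in placebo cells, a ratio of 0.556 (0.504 to 0.613). The protease gene Mmp14, whose product can trim CC chemokines, stood at 27.8 CPM in E2 cells and 81.5 CPM in placebo cells, a ratio of 0.340 (0.284 to 0.408). The NF-kB subunit genes Rela (51.8 CPM in E2 and 91.1 CPM in placebo cells) and Nfkb1 (176 CPM in E2 and 278 CPM in placebo cells) were past 1.5-fold downward too, as was Csf1, a macrophage growth factor gene at a low level (3.12 CPM in E2 and 11.8 CPM in placebo cells). Pik3cg and Cd44, also named by rank, had ratios of 0.707 and 0.738 and were not past it.

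In macrophage-like cells 42 list genes were measured, of which 2 were past 1.5-fold upward (1.51% of all measured genes were) and 6 downward (1.20% were), with a median log2 ratio of -0.17 against -0.04 over all genes. Ccrl2 was again higher, at 163 CPM in E2 cells and 89.2 CPM in placebo cells, a ratio of 1.83 (1.62 to 2.08). The protease gene Mmp9 stood at 146 CPM in E2 cells and 2.09 CPM in placebo cells, but only 15 of 802 E2 cells held it and 2 of them held 50% of its UMIs. Il6, a cytokine gene, stood at 15.3 CPM in E2 cells and 54.0 CPM in placebo cells, a ratio of 0.283 (0.225 to 0.356), with 50% of the placebo UMIs in 4 cells. Rgs2, Mmp14 and Cd44 were also past it downward, with ratios from 0.622 to 0.651.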

How the data were processed

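Live CD45+ cells sorted from tumours of ovariectomised mice given E2 or placebo were measured in 1 droplet 3′ RNA library each. The authors deposited whole-number UMI counts per gene and barcode, and the submitters' processing notes name Cell Ranger 3.1.0 and mm10. No deposited barcode held under 500 UMIs. Barcodes under 200 genes were left out (26 E2 and 15 placebo). The automatic Scrublet threshold marked 98 E2 barcodes (1.70%) and 2 placebo barcodes (0.0573%), so it did not work in the placebo library, and the highest scores were removed instead at 0.8% per 1000 barcodes (266 E2 and 97 placebo).

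Cells were gated by the marker list with the largest share of its genes detected (at least 3 genes, ties left in no class; 30 lists, of which 19 are lineages), with finer gates inside the T and the monocyte and macrophage lineages. Clusters (scanpy 1.11.5, 2000 variable genes, 30 components, 15 neighbours, Leiden resolution 1) gave 30 groups and served as an alternative. Counts were summed per class and library, and ratios have exact conditional binomial intervals and shares Clopper-Pearson intervals (95%, scipy 1.17.1). As a group is 1 library, no test was made. The ratio intervals and the fold call were tested on simulated counts for macrophage-like cells. Those counts held counting error only, and the gates, doublet removal, thinning and shares were not tested in this way. Named pathway genes are the 8 with the largest log2 ratios per class, with at least 50 CPM in a library and 30 UMIs; Csf1 was named after its values were seen, and some genes that the rule names are not reported here. The 5 genes, the gene lists and the comparisons were chosen with earlier results of these data known. Alternatives covered doublets, minimum genes, thinning, clusters, stricter gates, pseudocount, scaling and low genes, and 5 were added after seeing the data. Depth was 52628133 UMIs in the E2 library and 24545595 in the placebo library. Gene models are GENCODE M21 and promoter windows RefSeq, both on GRCm38.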

Additional observations from a re-analysis of the deposited data

How the results depend on the processing

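Of 347 recomputed values, 250 stayed within their counting interval or, for counts, within 1.5 times. The sign of Ccr2 over all kept barcodes changed with cells thinned to 2000 UMIs (0.04) and with the 50 most abundant genes left out (0.006), and was -0.08 without shared barcodes and -0.12 with 3 times as many doublets removed. Clusters in place of gates turned Ccl12 in classical monocyte-like cells (0.07), Ccl8 in macrophage-like cells (0.58) and Ccl2 in resident macrophage-like cells (0.14). Leaving out the richest cell of each library turned Ccl12 in classical monocyte-like cells (0.09), and leaving out resident macrophage-like cells turned Ccl8 (-0.17) and Ccl12 (-0.20) over all kept barcodes; these settings remove those cells by construction, and for the others the cause was not tested.

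Over all kept barcodes the log2 ratio of Ccl2 was 0.83 with 3 times as many doublets removed, 0.91 thinned, 0.78 without the 50 top genes and 0.52 without mast-like cells. For Ccl7 it was 1.28, 1.30, 1.27 and 1.05 under those settings, 1.26 with a pseudocount of 1 and 1.27 without resident macrophage-like cells. For Ccl8 it was 1.36 with more doublets removed, 0.93 thinned and 1.30 with a pseudocount of 1, where Ccl12 was 0.66. In mast-like cells Ccl2 was 0.28 thinned and 0.32 without the richest cells, and Ccl7 0.25 with more doublets removed and 0.17 thinned. In classical monocyte-like cells Ccl7 was 1.37 with 1 more marker, 1.44 with clusters and 3.14 with a pseudocount of 1, and Ccr2 -0.002 thinned. Ccr2 in macrophage-like cells was -0.54 with more doublets removed and -0.61 with clusters. In resident macrophage-like cells Ccl8 was 0.27 with more doublets removed, -0.52 thinned and -0.15 without shared barcodes, and Ccl12 -0.79 thinned, -0.51 with clusters and 0.43 without the richest cells.

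The mast-like share of Ccl2 UMIs in the E2 library was 43.1% with no doublet removal, 47.1% with more and 49.2% thinned. Its Ccl7 share there was 81.2%, 85.7% and 86.7%, and 84.9% with clusters, and in the placebo library 86.3% thinned. The resident macrophage-like share of Ccl8 in the E2 library was 85.9% with no doublet removal, 93.9% with more, 90.9% with clusters and 89.7% with 1 more marker. In the placebo library it was 90.0% thinned, 90.0% with clusters and 69.5% with 1 more marker. Its share of Ccl12 in the E2 library was 67.6% thinned, 53.3% with clusters and 62.5% with 1 more marker, and in the placebo library 59.2% thinned and 37.9% with 1 more marker. The monocyte and macrophage share of Ccr2 in the E2 library was 77.2% with no doublet removal, 77.4% with more, 76.2% thinned, 42.6% with clusters and 77.9% with 1 more marker, and in the placebo library 62.7% thinned and 44.7% with clusters. Thinned, a Ccl8 UMI was seen in 27.2% of E2 and 31.2% of placebo resident macrophage-like cells, and in E2 cells in 44.4% with clusters and 46.1% with 1 more marker. A Ccr2 UMI was seen in 84.4% of E2 and 84.7% of placebo classical monocyte-like cells thinned, and in 98.5% of placebo cells with clusters. Of placebo mast-like cells, 100% held Ccl2 with a minimum of 500 genes or thinned, and 93.9% held Ccl7 thinned. With no filter on low genes, 799 genes were past 1.5-fold downward in mast-like cells in place of 528. No paired analysis was possible because each group is 1 library. With 1 library per group, no value has a check against the spread between mice, classes under 100 cells rest on few cells, and the CD8 gate, with 2 markers, had no stricter form.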

Other observations

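A small cluster led by interferon-induced genes (Ifit3, Ifit1, Cxcl10, Isg15 and Rsad2; 69 E2 cells and 19 placebo cells) was given no class name, and it was picked out after its values were seen. Its Ccl12 stood at 203 CPM in E2 cells and 28.9 CPM in placebo cells. Its Ccl7 stood at 208 CPM in E2 cells (155 UMIs) and at 0 UMIs in placebo cells, and its Ccl2 at 461 CPM in E2 cells and 217 CPM in placebo cells.

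Transcripts of other receptors that these ligands can use were found as follows. Ccr1 was highest in neutrophil-like cells, at 799 CPM in E2 cells and 1386 CPM in placebo cells. Ccr3 stood at 65.4 CPM in E2 and 77.2 CPM in placebo regulatory T-like cells. Ccr8, whose product is the receptor that mouse CCL8 largely acts on, was low. It stood at 11.5 CPM in E2 and 13.1 CPM in placebo regulatory T-like cells. In other T-like cells it stood at 10.5 CPM in E2 cells and 8.34 CPM in placebo cells. Its CPM was highest in ILC2-like cells, on only 6 E2 and 13 placebo UMIs. No Ccr8 UMI was seen in any monocyte or macrophage gate of either library.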
